A study of Mus musculus with 24 samples.

Results

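Follicular helper and naive-like T cell genes were followed in liver-resident invariant natural killer T (LiNKT) cells of untreated mice and of mice given αGalCer/CD1d-NPs. The genes were chosen by name: Bcl6, Cxcr5, Izumo1r, Slamf6 and Sh2d1a for follicular helper cells, Tcf7, Lef1 and Id3 for naive-like cells, and Id2 for effector cells. They are 9 of the 55401 genes in the SmartSeq2 tables, and the question asked of them was whether treated LiNKT cells keep follicular helper features.

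Follicular helper T cells enter B cell follicles and help B cells there. BCL6 is the repressor that defines them, CXCR5 is the chemokine receptor that guides them into the follicle, and SAP (encoded by Sh2d1a) passes on the signals of SLAM family receptors such as SLAMF6 during contact with B cells; iNKT cells also need SAP to develop. TCF-1 (Tcf7) and LEF1 are transcription factors of naive and memory cells that also promote Bcl6, whereas Id2 and Id3 hold the E proteins away from DNA, Id2 mostly in effector, NK and iNKT cells and Id3 in naive and follicular helper cells. Izumo1r encodes folate receptor 4, a surface protein of follicular helper, regulatory and anergic CD4+ T cells.

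All mice were NOD/ShiLtj, and the cells were sorted from liver as αGalCer/CD1d tetramer+ TCRβint cells. The reagent was an iron oxide nanoparticle coated with CD1d that presents the glycolipid α-galactosylceramide; treated mice had 20 µg in each of 2 doses a week for 5 weeks. SmartSeq2 used 3 male mice of 13 to 15 weeks in each group, the multiome 5 untreated and 4 treated males of the same age, and bisulfite sequencing 7 untreated females of 17 weeks and 4 treated mice of 16 weeks whose sex is not stated. For the multiome, a figure legend of the study gives a younger age and says that the control mice had vehicle. Its methods also allow for controls given Cys-NPs, a control nanoparticle. The tables used here do not separate the mice or replicates of a group and so hold 1 sample per group for each assay, also for bisulfite sequencing, for which the study describes replicates. The difference between mice is therefore unknown, and no test between groups was possible.

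Regions of changed methylation lay inside Izumo1r, Tcf7 and Lef1 and downstream of Slamf6. The reference sequence of these regions is shown first because the methylation results turn on it; each line is the central 300 bases on the strand of the gene (GRCm38), and capitals mark the CpG dinucleotides, the positions at which methylation was compared. The windows are chr9:14892222-14892521 (minus strand, Izumo1r intron), chr9:14902135-14902434 (minus strand, a coding exon and the intron after it of Izumo1r), chr1:171975850-171976149 (plus strand, 3′ of Slamf6), chr11:52272595-52272894 (minus strand, Tcf7 intron) and chr3:131113771-131114070 (plus strand, a coding exon of Lef1 and its flanking introns).
Izumo1r, intron, methylation lost: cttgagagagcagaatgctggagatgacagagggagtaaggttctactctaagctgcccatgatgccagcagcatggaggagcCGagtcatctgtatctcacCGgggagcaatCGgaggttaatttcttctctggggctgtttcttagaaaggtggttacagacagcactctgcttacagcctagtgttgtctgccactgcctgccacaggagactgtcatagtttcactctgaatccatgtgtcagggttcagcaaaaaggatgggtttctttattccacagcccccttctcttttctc
Izumo1r, near the 5′ end, methylation lost: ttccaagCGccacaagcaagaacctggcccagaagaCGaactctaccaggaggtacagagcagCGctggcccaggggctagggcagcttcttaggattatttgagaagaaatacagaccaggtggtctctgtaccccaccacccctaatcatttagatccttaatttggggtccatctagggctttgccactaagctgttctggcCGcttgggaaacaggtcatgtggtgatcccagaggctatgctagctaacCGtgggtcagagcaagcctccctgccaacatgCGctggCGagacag
Slamf6, downstream, methylation lost: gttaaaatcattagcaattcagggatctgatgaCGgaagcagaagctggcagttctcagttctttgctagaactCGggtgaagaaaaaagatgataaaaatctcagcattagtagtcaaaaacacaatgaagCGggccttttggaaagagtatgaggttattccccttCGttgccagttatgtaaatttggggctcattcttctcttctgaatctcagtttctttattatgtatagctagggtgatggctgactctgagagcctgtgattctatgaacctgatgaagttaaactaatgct
Tcf7, intron, methylation gained: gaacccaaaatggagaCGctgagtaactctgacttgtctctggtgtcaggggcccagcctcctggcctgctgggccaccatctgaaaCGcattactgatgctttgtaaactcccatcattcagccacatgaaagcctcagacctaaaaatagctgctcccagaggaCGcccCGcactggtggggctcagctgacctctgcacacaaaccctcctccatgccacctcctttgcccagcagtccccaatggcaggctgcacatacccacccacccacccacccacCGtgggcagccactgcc
Lef1, near the 5′ end, methylation gained: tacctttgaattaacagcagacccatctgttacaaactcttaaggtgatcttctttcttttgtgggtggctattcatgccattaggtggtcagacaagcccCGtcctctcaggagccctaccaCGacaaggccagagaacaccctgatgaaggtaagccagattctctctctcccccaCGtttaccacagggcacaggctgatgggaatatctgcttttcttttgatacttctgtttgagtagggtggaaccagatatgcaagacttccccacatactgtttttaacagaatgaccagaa

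The cells of both groups were read to a like depth. Of 284 untreated and 282 treated cells in the tables, the 273 and 251 in the study's cell list were used. The 273 untreated cells had a median of 635257 counts and 861 genes, and the 251 treated cells 599896 counts and 850 genes. At least 1 of 7 iNKT markers (Cd3e, Trac and others) was read in every untreated cell and in all but 16 treated cells. Macrophage markers (Lyz2, C1qa, Csf1r) summed to 0.0116 CPM (counts per 1000000) in the untreated group and to 1793 CPM in the treated one, and were read in 2 untreated and 11 treated cells; these 11 are all among the 16. Hepatocyte markers were read in 0 of 273 untreated cells, which allows a share of up to 1.1% (3 cells of the total) or, by the exact interval, 1.34%, and in 3 treated cells. Of the B cell markers, Cd79b, Ms4a1 and Pax5 had no read in either group and Cd79a had 2 reads in 1 untreated cell, while Ighm was read in 20.9% of untreated and 9.96% of treated cells. The log2 ratio and the share of cells of each member, and the counts of cells with members of a group, were also computed without the cells that carry a macrophage or hepatocyte marker; the other values below were not, except where said.

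In the SmartSeq2 sums, Izumo1r was far higher in treated cells, Lef1 was lower, Id2 was read in fewer cells, and Bcl6, Slamf6 and Sh2d1a differed by less than 2-fold. Of the 8 members with at least 10 summed counts, 3 differed by at least 2-fold on the scale of CPM with 1 CPM added (Izumo1r and Id3 higher, Lef1 lower); over all 15052 genes with that many counts the share was 37.2%, with 20.1% higher and 17.2% lower in treated cells, so that the number of members past 2-fold is no more than that of genes at large. A read in SmartSeq2 can be a PCR copy, and 1 cell can hold most reads of a rare gene, so that the share of cells with a read is the firmer measure here. Izumo1r (higher) and Id2 (lower) differed by at least 10 percentage points in that share, which 0.352% of all genes did upwards and 0.658% downwards. Intervals are exact 95% intervals and cover counting error only.

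**Figure D1:**
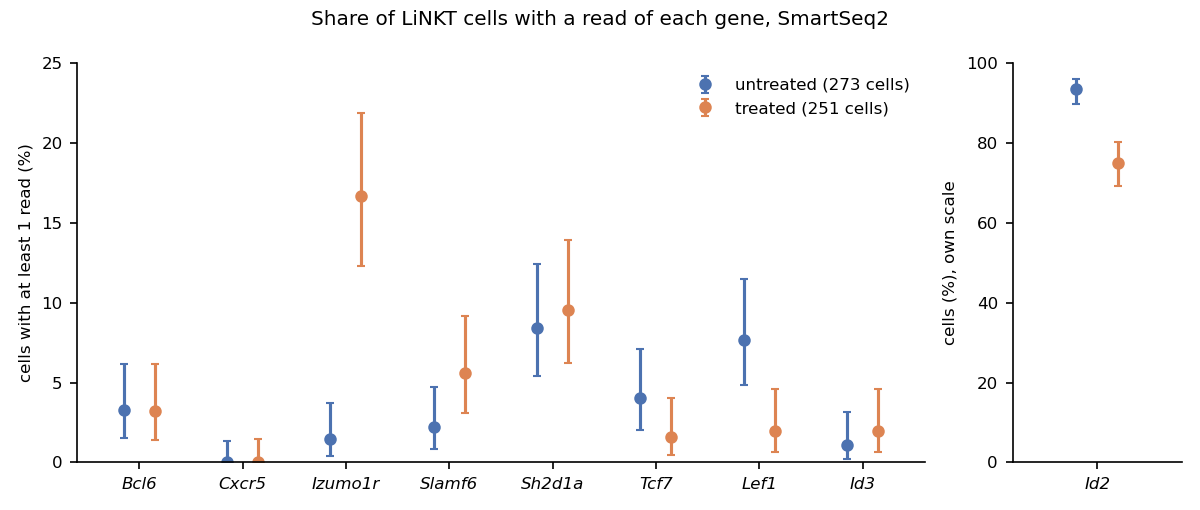
Share of cells with at least 1 read of each gene (y axis, %) in untreated (273) and treated (251) cells, with exact 95% binomial intervals as bars; Id2 has its own scale. Izumo1r goes from 1.47% to 16.7% and Id2 from 93.4% to 74.9%, while the intervals of Bcl6, Slamf6, Sh2d1a, Tcf7 and Id3 overlap between groups.

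Bcl6 was read in 9 untreated cells (3.3%, interval 1.52 to 6.17%) and 8 treated cells (3.19%, interval 1.39 to 6.18%). The untreated cells held 13 to 638 reads each, with a median of 255, and the treated cells 1 to 1621, with a median of 123. The summed level was 15.1 CPM against 15.7 CPM after treatment, but 1 treated cell gave 69.4% of the treated reads, and 2 of the 8 treated cells carry a macrophage marker. Within flow cell lanes the ratio took both signs, with log2 values of 0.70 in lane 1 and -1.13 in lane 2. No Bcl6 read fell in the 57 cells of sub-cluster 5, the treated cells with the most Il10 (interval up to 6.27%). With shares of 6.56% in treated sub-cluster 2 and 3.01% in sub-cluster 4, a lower share in sub-cluster 5 could not be made out.

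Cxcr5 had no read in any of the 273 untreated or 251 treated cells, which allows shares of up to 1.1% and 1.2% when 3 cells are taken as the limit of a count of 0, and of up to 1.34% and 1.46% by the exact interval. The transcript of the receptor that brings a T cell into the follicle was thus not detected in either group at this depth, and the protein was not measured. Cxcr5 overlaps Bcl9l on the other strand, and with strand not stated reads there cannot be told apart.

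Izumo1r was read in 4 untreated cells, with 425 to 1026 reads each, and in 42 treated cells, with 8 to 6484 reads and a median of 1128. The share of cells was 1.47% (interval 0.401 to 3.71%) in untreated and 16.7% (interval 12.3 to 21.9%) in treated cells, and the sums were 17.5 and 416 CPM, a log2 ratio of 4.49. The intervals do not overlap, and the share was as high in lane 1 (16.2% of treated against 1.63% of untreated cells) as in lane 2 (17.9% against 1.12%). Only 1 of the 42 cells carries a marker of macrophages or hepatocytes. The study assigned the cells to sub-clusters from their expression, and the treated cells with a read were spread unevenly over these sub-clusters. They were 27 of 57 cells of sub-cluster 5, 11 of 61 of sub-cluster 2 and 4 of 133 of sub-cluster 4. Treated cells had a median of 664117 counts and 967 genes in sub-cluster 5. The medians were 535694 and 777 in sub-cluster 2, and 610978 and 842 in sub-cluster 4. The part of this depth in the shares by sub-cluster, here and below, was not tested. Among the cells with a read, the median level was 1141 CPM in the untreated group and 1697 CPM in the treated one, so that the groups were set apart mostly by the number of such cells.

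Slamf6 was read in 6 untreated cells (2.2%, interval 0.811 to 4.72%) and 14 treated cells (5.58%, interval 3.08 to 9.18%). The sums were 63.3 and 106 CPM, a log2 ratio of 0.73 that was 1.73 in lane 1 and -0.38 in lane 2. Over all cells of the tables the share was 2.11% (interval 0.779 to 4.54%) against 8.51% (interval 5.53 to 12.4%) and the log2 ratio 1.32, so that both the 2-fold call and the overlap of the intervals depend on the cell list. All 6 untreated cells belong to sub-cluster 2, and 7 of the 14 treated cells to sub-cluster 5, of which they are 12.3%.

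Sh2d1a was read in 23 untreated cells (8.42%, interval 5.42 to 12.4%) and 24 treated cells (9.56%, interval 6.22 to 13.9%), with sums of 79.1 and 89.6 CPM. The intervals overlap over most of their width, and the log2 ratio was 0.17 in lane 1 and 0.22 in lane 2. In treated cells it was read in 15.8% of sub-cluster 5 (interval 7.48 to 27.9%), 9.84% of sub-cluster 2 and 6.77% of sub-cluster 4.

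Of the naive-like genes, Lef1 was lower in treated cells and Tcf7 was rare in both groups. Lef1 was read in 21 untreated cells, with 5 to 1580 reads each, and in 5 treated cells, with 852, 394, 18, 3 and 1 reads. The share was 7.69% (interval 4.82 to 11.5%) in untreated and 1.99% (interval 0.65 to 4.59%) in treated cells, and the sums were 62.2 and 8.51 CPM, a log2 ratio of -2.73. The intervals do not overlap, the ratio was -5.58 in lane 1, where treated cells held 1 read, and -1.71 in lane 2, and no cell with a macrophage or hepatocyte marker holds a Lef1 read. In lane 2 the shares lay closer together, at 7.87% of untreated and 5.13% of treated cells. Over all 284 untreated and 282 treated cells of the tables they were 8.1% (interval 5.2 to 11.9%) and 3.55% (interval 1.71 to 6.42%), which overlap, with a log2 ratio of -2.12, so that the separation of the intervals depends on the cell list. The untreated cells with Lef1 were 19 of 228 in sub-cluster 2 (8.33%, interval 5.09 to 12.7%) and 2 of 43 in sub-cluster 4; the treated cells were 3 of 61 in sub-cluster 2 (4.92%, interval 1.03 to 13.7%), 1 of 133 in sub-cluster 4 and 1 of 57 in sub-cluster 5. In sub-cluster 4 the shares were 4.65% (interval 0.568 to 15.8%) in untreated and 0.752% (interval 0.019 to 4.12%) in treated cells. The intervals overlap between groups in sub-clusters 2 and 4. Sub-cluster 2 held 228 of the 273 untreated and 61 of the 251 treated cells, and the part of this make-up in the lower share was not tested.

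Tcf7 was read in 11 untreated cells (4.03%, interval 2.03 to 7.1%) and 4 treated cells (1.59%, interval 0.436 to 4.03%). The treated cells held 1638, 1488, 33 and 30 reads, and in the untreated cells 1 cell of 2426 reads gave 44.1% of the sum. The sums were 31.9 and 21.4 CPM, and the log2 ratio changed sign between lanes (-1.47 in lane 1, 1.63 in lane 2), so that the sums give no direction. The share was lower in treated cells in lane 1 (4.35% against 1.16%) and in lane 2 (3.37% against 2.56%), with intervals that overlap between groups. Sub-cluster 3 has only 2 cells, both untreated, and both held Tcf7 reads (2426 and 15).

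Id3 was 3.59-fold higher in the treated sum (12.3 against 44.2 CPM), from 3 untreated cells with 1230, 877 and 20 reads and 5 treated cells with 2580, 2006, 1663, 263 and 79 reads. All 5 treated cells carry a macrophage marker, and none of them carries Cd3e. Without the cells that carry macrophage or hepatocyte markers no treated cell held an Id3 read, and the log2 ratio of 1.76 became -3.74. The size of that ratio depends on the 1 CPM added. The untreated share was then 1.11% (interval 0.229 to 3.2%), which overlaps the treated interval of up to 1.54%. Among cells with a Cd3e read and none of those markers, Id3 was read in 3 of 220 untreated cells (1.36%) and 0 of 199 treated cells, whose interval reaches 1.84%.

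Id2 was read in 255 untreated cells (93.4%, interval 89.8 to 96%) and 188 treated cells (74.9%, interval 69.1 to 80.1%). The sums were 3693 and 2836 CPM, a log2 ratio of -0.38, and the median over all cells went from 3211 to 1958 CPM. The lower quartile was 1843 CPM before and 1.37 CPM after treatment, so that the groups differ at the low end of the range while the highest treated cell (21071 CPM) lies above the highest untreated cell (12206 CPM). The share was 94% against 75.7% in lane 1 and 92.1% against 73.1% in lane 2, and 93% against 75% with every cell thinned to 100000 counts. It was 93.2% against 76.4% among cells with a Cd3e read and no macrophage or hepatocyte marker. Of 255 genes read in at least 50% of untreated cells, 16.1% had a share at least 10 points lower in treated cells, and 9 of them, Id2 included, were lower by at least as much as Id2; the median difference over these genes was -4.08 points.

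The share of cells with Id2 differed between treated sub-clusters. Id2 was read in 29 of 57 cells of sub-cluster 5 (50.9%, interval 37.3 to 64.4%), 43 of 61 of sub-cluster 2 (70.5%, interval 57.4 to 81.5%) and 116 of 133 of sub-cluster 4 (87.2%, interval 80.3 to 92.4%). In untreated cells the shares were 94.7% of sub-cluster 2 and 86% of sub-cluster 4. The treated cells with and without an Id2 read had a median of 589308 and 628053 counts and of 856 and 801 genes, Cd3e was read in 80.9% and 76.2% of them, and 6 of the 63 cells without it carry a macrophage marker against 5 of the 188 with it. Il2rb, a receptor chain of NK and iNKT cells, was read in 70.2% of treated cells with Id2 and 38.1% of those without. The intervals were 63.1 to 76.6% and 26.1 to 51.2%, while in untreated cells the shares were 82% and 83.3%. Maf was read in 23.4% and 47.6% of treated cells, with intervals of 17.6 to 30.1% and 34.9 to 60.6%. Pdcd1 was read in 16.5% and 28.6%, with overlapping intervals, and Gzma in 45.7% and 20.6%. Maf was read in 82.5% of treated sub-cluster 5 and 6.02% of sub-cluster 4. The part of the sub-clusters in these shares was not tested.

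**Figure D2:**
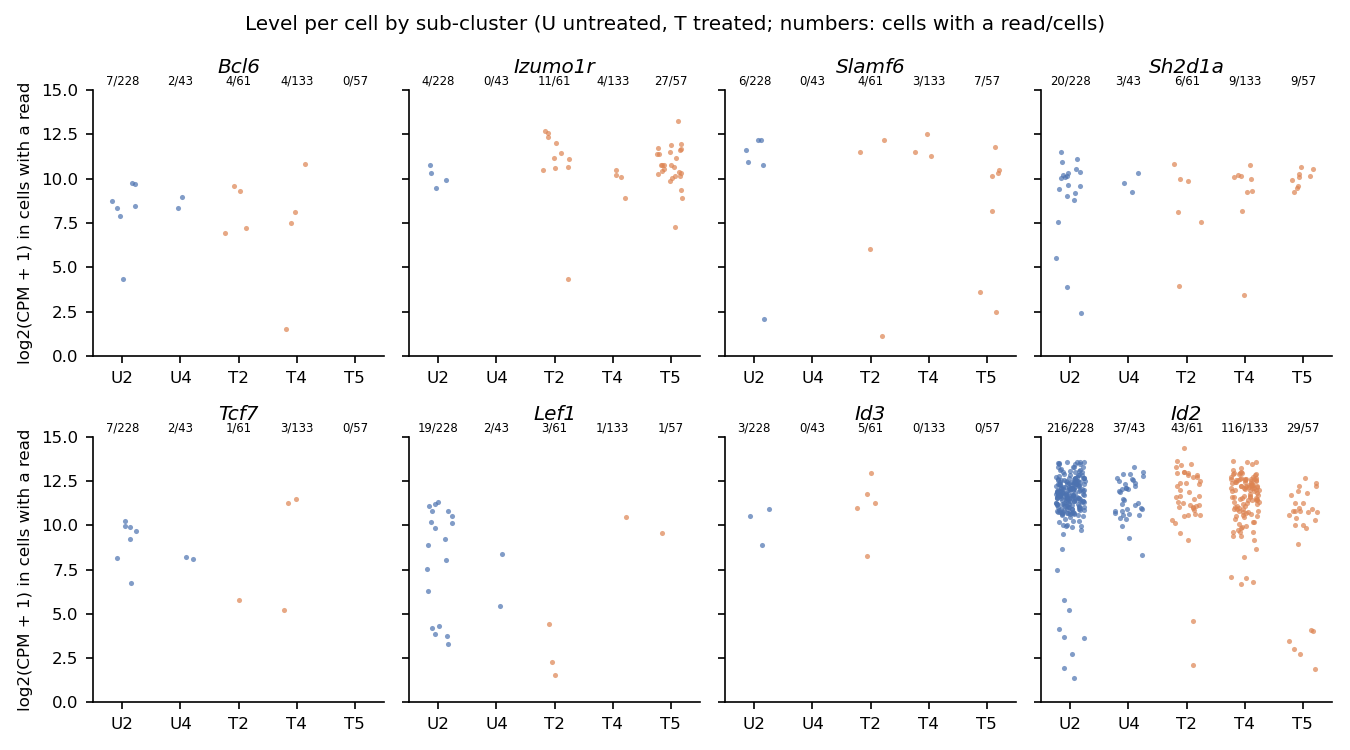
Level of each member, as log2(CPM + 1), in single cells with a read (points), by sub-cluster of untreated (U2, U4) and treated (T2, T4, T5) cells; the numbers above give cells with a read over all cells, and Cxcr5 (no read) and the 2 cells of sub-cluster 3 are left out. Izumo1r is read mostly in T5 (27 of 57) and T2 (11 of 61), Lef1 lies mostly in U2 (19 of 228), and Id2 is read in 29 of 57 cells of T5.

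Members other than Id2 were rarely read together in 1 cell. Each of them was read in at most 16.7% of the cells of a group, so that few shared cells follow from these shares alone. Whether the members go together was not tested. Of the 5 follicular helper members, none was read in 233 of 273 untreated cells (85.3%) and 175 of 251 treated cells (69.7%). Exactly 1 was read in 38 untreated and 66 treated cells, 2 in 2 untreated and 8 treated cells, and 3 in 0 untreated and 2 treated cells. No cell held 4. Cells with at least 1 of Tcf7, Lef1 and Id3 went the other way, with 34 untreated and 14 treated cells; 5 of the 14 are the cells with Id3 and a macrophage marker, and without cells that carry a macrophage or hepatocyte marker the treated count was 9. The higher number of cells with a follicular helper member rests mostly on Izumo1r (4 and 42 cells), since Bcl6 (9 and 8) and Sh2d1a (23 and 24) were read in like numbers and Slamf6 in 6 and 14. In SmartSeq2 a transcript can be missed in a cell that makes it, and some cells count by 1 to 3 reads.

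Among treated cells, Maf, Pdcd1, Il21, Il10 and Icos were read more often in the cells with Izumo1r than in those without. Slamf6 was read in 9.52% (interval 2.66 to 22.6%) and 4.78%, and Sh2d1a in 14.3% (interval 5.43 to 28.5%) and 8.61%, so that a difference could not be made out from these few cells. Maf, a factor that drives Il10 and Il21, was read in 32 of the 42 cells with Izumo1r (76.2%, interval 60.5 to 87.9%) and 42 of the 209 without (20.1%, interval 14.9 to 26.2%). Pdcd1, the gene of the receptor PD-1, was read in 50% and 13.4%. Il21, the cytokine of follicular helper cells, was read in 33.3% and 5.74%, Il10 in 33.3% and 8.61%, and Icos, a co-stimulatory receptor, in 33.3% and 13.4%. Gzma, a granzyme of cytotoxic cells, was read in none of the 42 cells with Izumo1r (interval up to 8.41%) and in 99 of the 209 without (47.4%, interval 40.4 to 54.4%). Id2 was also read less often in the cells with Izumo1r, in 24 of 42 (57.1%, interval 41 to 72.3%) against 164 of 209 (78.5%, interval 72.3 to 83.8%). The cells with Izumo1r had a median of 1008 genes and those without 822, at 625544 and 598715 counts, and the part of this difference in the shares was not tested. Bcl6 and Izumo1r shared 1 treated cell. The cells with Izumo1r were mostly of sub-cluster 5 (27 of 42) and those without mostly of sub-cluster 4 (129 of 209), and the shares differed between these sub-clusters. Within sub-cluster 5 the 27 cells with and the 30 cells without Izumo1r had overlapping intervals for each gene: Maf was read in 88.9% and 76.7%, Pdcd1 in 55.6% and 40%, Il21 in 40.7% and 33.3%, Il10 in 40.7% and 46.7%, Icos in 44.4% and 56.7%, and Id2 in 51.9% and 50%. Gzma was read in none of either. In sub-cluster 4, Gzma was read in 0 of 4 cells with Izumo1r (interval up to 60.2%) and 93 of 129 without (interval 63.5 to 79.6%). In sub-cluster 2, Maf was read in 7 of 11 cells with and 12 of 50 without (63.6% and 24%), with intervals of 30.8 to 89.1% and 13.1 to 38.2%. The genes compared here follow no fixed list and were chosen after values of these cells had been seen.

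**Figure D3:**
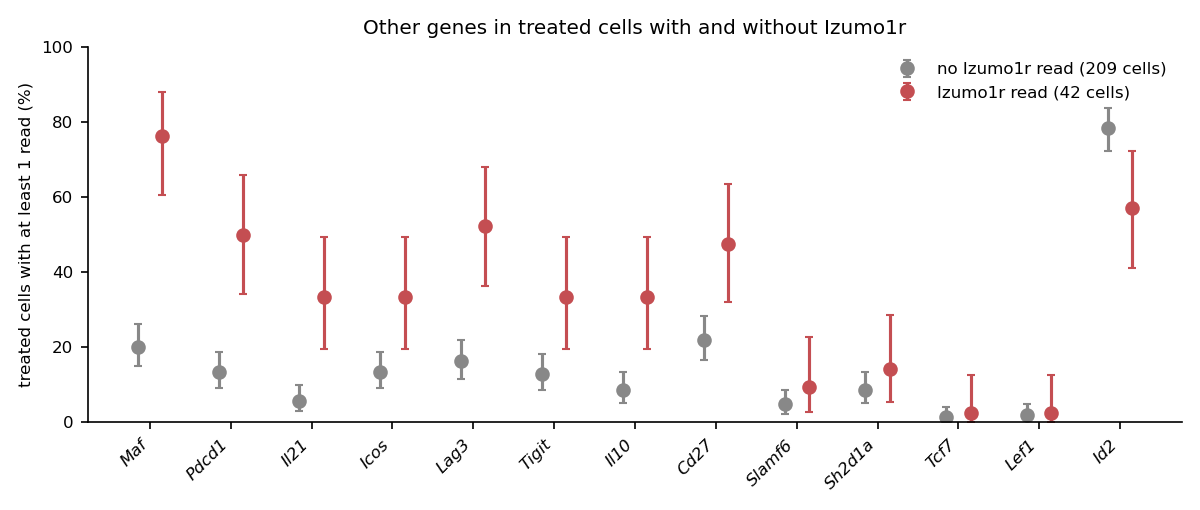
Share of treated cells with a read of other genes (y axis, %) among the 42 cells with an Izumo1r read and the 209 cells without, with exact 95% binomial intervals as bars. Maf (76.2% against 20.1%), Pdcd1, Il21 and Lag3 are higher with Izumo1r, Id2 is lower (57.1% against 78.5%), and Tcf7 and Lef1 lie between 1.44 and 2.38% in both.

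Over the 524 cells, the genes most like each member were sought among 2095 genes read in at least 10% of cells, by Pearson's r of log2(CPM + 1). Izumo1r went with Pdcd1 (r = 0.37) and Lag3 (r = 0.36), Id3 with Vim (r = 0.29) and Nsa2 (r = 0.20), Id2 with Tmsb10 (r = 0.25) and Cxcr6 (r = 0.23), and Bcl6 with Ybx1 (r = 0.20). No gene reached 0.2 for Slamf6, Sh2d1a, Tcf7 or Lef1. These correlations are weak, the cells come from 2 groups that differ in many genes, and all points share the depth of their cell, so that they only describe the table. Within treated cells Izumo1r and Pdcd1 had r = 0.34, and within untreated cells r = -0.02.

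Of 21 other follicular helper genes 17 had at least 10 counts, of which 9 were at least 2-fold higher and 2 at least 2-fold lower in treated cells (20.1% and 17.2% over all genes), with a median log2 ratio of 1.16 against 0.02 over all genes, and of 1.17 with genes at 0 in a group taken at their bound against 3 counts. In the share of cells, Il21, Pdcd1 and Maf (6.96% to 29.5%) were at least 10 points higher and no gene was 10 points lower. Over all genes, 0.352% were that much higher and 0.658% that much lower. Cd40lg went from 23.1% to 14.7% of cells. The list was chosen with earlier results of these data known, and the paper reports Il21, Pdcd1, Maf and Il4 as upregulated by treatment. These counts are therefore no separate sign of a follicular helper programme. Il21 had no read in any untreated cell and 97.5 CPM in the treated group, from 26 cells (10.4%). Bounds against 3 counts, here and below, rest on reads, which can be PCR copies, so that no fold is given for Il21. Pdcd1 went from 34.8 to 794 CPM (6 and 49 cells), and Tnfsf8, the CD30 ligand gene, from no read to 17.4 CPM in 6 cells. The lowest ratios were those of Il6st and Il21r, both cytokine receptor genes, and of Cxcr4. Il6st went from 20.3 to 2.34 CPM, from 1 untreated and 4 treated cells. Il21r went from 251 to 132 CPM (42 and 26 cells) and Cxcr4 from 4.11 to 0.523 CPM (10 and 7 cells). Ascl2, Tox2 and Pou2af1, factors of follicular helper cells, had no read in either group, and 5 of the 6 treated cells with Il6ra carry a macrophage marker.

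Of 9 genes that oppose the programme, 1 was at least 2-fold higher and 2 were at least 2-fold lower, with a median log2 ratio of -0.13; these counts are too small to set apart from the 20.1% and 17.2% over all genes. Il2ra, the gene of the high-affinity IL-2 receptor chain, went from 95.6 to 32.1 CPM and from 51 to 15 cells, Stat5a from 11.4 to 4.43 CPM (4 cells and 1 cell, the latter with a macrophage marker) and Foxo1 from 28.3 to 18.7 CPM (8 and 5 cells). Stat5b went from 10.4 to 52.8 CPM (7 and 13 cells), Prdm1, which encodes the antagonist of BCL6, from 67 to 111 CPM (13 and 19 cells), and Runx3 from 66.7 to 68.5 CPM (28 and 11 cells).

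Among 13 further naive and memory genes, 10 had at least 10 counts, of which 4 were at least 2-fold higher and 2 at least 2-fold lower (20.1% and 17.2% over all genes), with a median log2 ratio of 0.30 (0.68 with genes at 0 at their bound). In the share of cells, Cd27 was at least 10 points higher (15.8% to 26.3%), and Txk (36.3% to 22.7%) and Bcl2 (35.9% to 21.5%) were at least 10 points lower. Over all genes, 0.352% were that much higher and 0.658% that much lower, and these few genes give no direction for the list. The 2-fold lower ones were Il7r, the IL-7 receptor gene of naive and memory cells (191 to 63.7 CPM, 35 and 13 cells), and the kinase gene Txk (400 to 175 CPM, 99 and 57 cells), and Bcl2 followed at 239 and 157 CPM. Those with higher ratios included Bach2 (0.0522 to 31 CPM, 4 and 8 cells) and S1pr1, the receptor for exit from tissue (9.49 to 61.9 CPM, 4 and 16 cells). Ccr7, Myb and Dapl1 had no read in either group.

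Of 8 TCF and LEF partners 6 had enough counts; 2 of them (Ctnnb1 and Axin2) were at least 2-fold lower and none was higher past 2-fold, with a median log2 ratio of -0.69, while 37.2% of all genes were past 2-fold either way. Ctnnb1, which encodes the co-activator β-catenin, went from 58 to 6.56 CPM (13 and 2 cells), Axin2 from 5.6 to 0.785 CPM (10 and 4 cells) and Tle4, a co-repressor, from 47.7 to 24.2 CPM (29 and 18 cells). The highest were Aes (43.2 to 84.4 CPM, 46 and 63 cells), Tcf7l2 (0.0174 to 0.698 CPM, 1 and 3 cells, all 3 treated cells with a macrophage marker) and Tle3 (25.2 to 18.3 CPM). Of 7 E proteins and other partners of Id2 and Id3, 5 had enough counts (median log2 ratio 0.61) and 2 were at least 2-fold higher, Zeb2 (no read to 33.7 CPM in 17 cells, 7 of which carry a macrophage marker) and Id1 (no read to 4.55 CPM in 3 cells, 2 of which do). Tcf3, Zeb1 and Tcf12 differed by less than 2-fold, with log2 ratios of 0.61, 0.31 and 0.04. Of 9 SLAM and SAP pathway genes 3 were at least 2-fold higher and none lower (20.1% and 17.2% over all genes), with a median log2 ratio of 0.35: Sh2d1b1 (no read to 4.52 CPM in 1 cell), Cd244a (105 to 302 CPM, 15 and 45 cells) and Cd84 (151 to 322 CPM, 35 and 54 cells). The lowest were Ly9, Slamf1 and Slamf7, with log2 ratios of -0.75, -0.69 and -0.56.

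Methylation differed near 5 of the 9 members. The table holds 2873 regions, 69% of which lost methylation in treated cells, and 9 of them lay within 50 kb of a member, 4 that lost and 5 that gained methylation. Of 21755 protein-coding genes, 16.8% had a region within 50 kb, 11.4% one that lost and 6.98% one that gained methylation. Izumo1r and Slamf6 had losses, Cxcr5 and Lef1 gains, and Tcf7 regions of both kinds; Bcl6, Sh2d1a, Id3 and Id2 had none. Sh2d1a lies on the X chromosome, for which the unstated sex of the treated mice matters. Each value is the authors' mean of a group; the read depth and the spread between mice are unknown, and a change within cells cannot be told apart from a change in the mix of cells.

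Izumo1r, the member with the highest log2 ratio in SmartSeq2, lost methylation in 2 regions inside the gene. The paper already names Izumo1r among the upregulated genes whose bodies lost methylation, from this bisulfite sequencing. It places the gene with those that gained neither open chromatin regions nor the histone mark H3K27ac. At chr9:14892189-14892553, in an intron 11.4 kb after the TSS, the mean was 90.2% in untreated and 55.8% in treated cells. At chr9:14902141-14902427, which spans a coding exon and the next intron 1.47 kb after the TSS, it was 72.1% and 36.9%. Each of the 5 CpGs of the first and 7 CpGs of the second region was lower in treated cells; in the second they ranged from 43 to 83.5% in untreated and from 17.5 to 52.5% in treated cells.

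Slamf6 had 1 region, at chr1:171975620-171976379, 22.4 kb past its 3′ end and in no annotated gene. Its mean was 83.4% in untreated and 33.8% in treated cells, a difference of -49.6 points against a median size of 35.3 points over all regions. All 13 CpGs were lower in treated cells, but 1 of them, with a value on 1 strand only, was at 2% in untreated and 0% in treated cells. Variants of NOD mice against the reference sequence were not examined. The nearest TSS there is that of Vangl2, so that the region need not belong to Slamf6.

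Tcf7 had 3 regions. The intronic one, at chr11:52272610-52272878, gained methylation from 38.3 to 75.6%, and one 27.8 kb before the gene, at chr11:52310811-52311024, from 15.9 to 41.6%. The third, 41.5 kb before the gene at chr11:52324537-52324796 and closer to the TSS of Vdac1, lost methylation from 92.1 to 54.6%. All CpGs of a region changed in the same direction, 5 and 12 upwards in the first and second and 8 downwards in the third. Regions of both directions lay within 50 kb of 1.58% of protein-coding genes, and at least 3 regions within 50 kb of 1.87%.

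Lef1, whose reads were fewer in treated cells, gained methylation at chr3:131113752-131114088, which spans a coding exon 1.12 kb after the nearest TSS. The mean went from 16.3 to 47.4%, and all 5 CpGs were higher in treated cells, with a highest value of 80.5% against 31%. With the authors' q-value held to at most 0.01, Lef1 had no region. Both regions near Cxcr5 gained methylation (37.5 to 79.6% at chr9:44493101-44493426 and 24.2 to 56.3% at chr9:44510594-44511203). They lie in the neighbouring gene Bcl9l, 18361 and 584 bases past the 3′ end of Cxcr5. Cytosines outside CpGs in the 9 regions stayed between 1.21 and 2.36% in both groups.

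**Figure D4:**
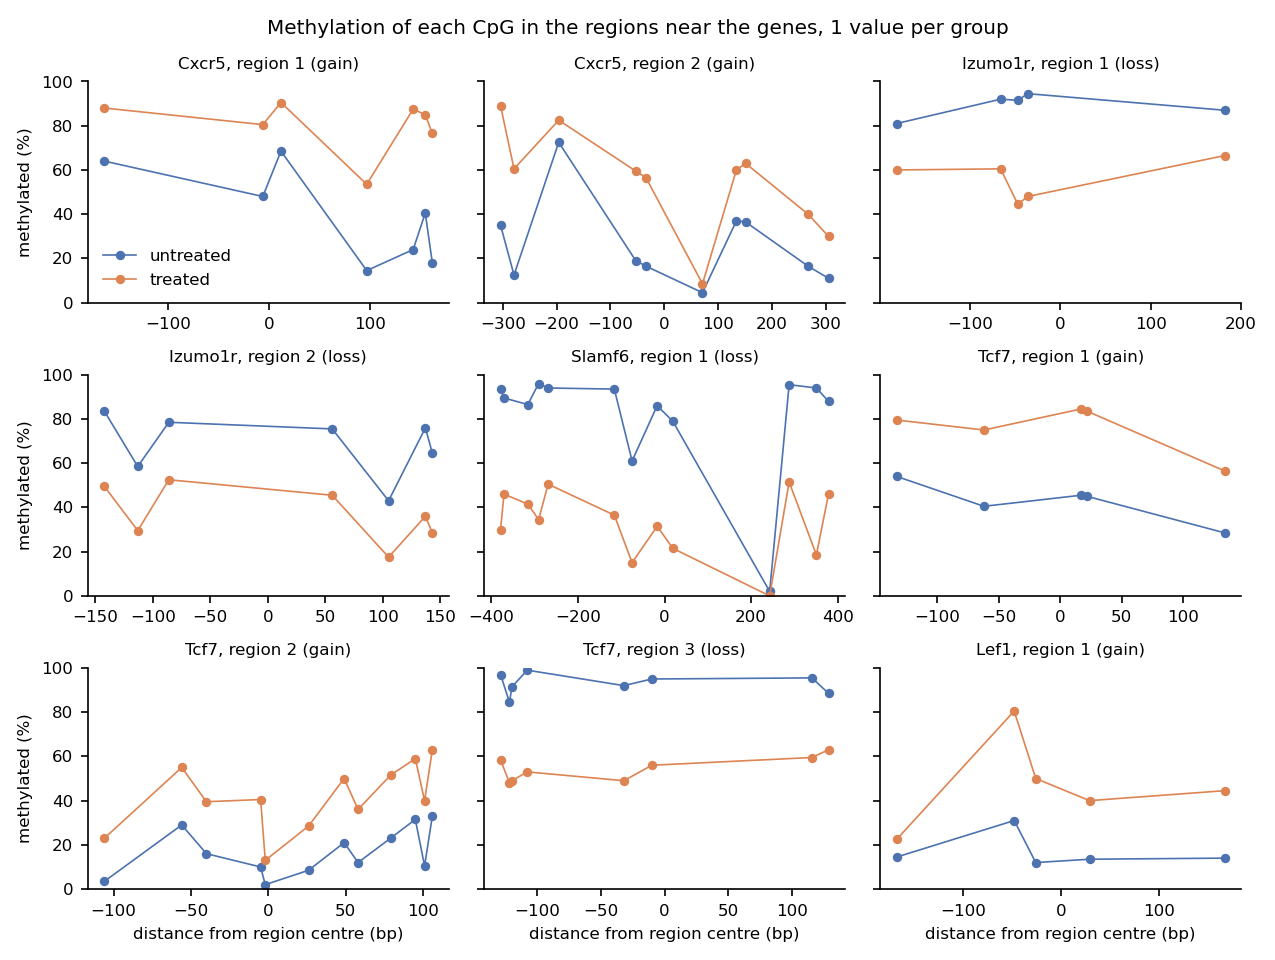
Methylation (y axis, %) of each CpG in the 9 regions within 50 kb of a member, as a mean over the strands with a value, against its distance from the region's centre (x axis, bp, along the gene), for untreated and treated cells; there is 1 value per group and no error. All CpGs of the 2 Izumo1r regions are lower in treated cells, and those of Lef1 and of Tcf7 regions 1 and 2 are higher.

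Motifs of the factors among the members were searched on both strands in the central 300 bases of the regions. CAGGTG, an E box that E proteins bind, was found in the 5′ region of Izumo1r and in Tcf7 regions 2 and 3, and in 19.7% of all regions; each is also a CANNTG match, a motif that 80.8% of all regions hold. CTTTGA, the core that TCF-1 and LEF1 bind, was found in the Lef1 region and in 21.8% of all regions. CTTTGT, a variant of it, was found in Tcf7 regions 1 and 3 and in 24.2% of all regions. TTCNNNGAA, the core bound by STAT factors that overlaps the motif of BCL6, was found in the intronic Izumo1r region and in the Slamf6 region, and in 12.5% of all regions.

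In the multiome, barcodes end in 1 or 2. No label or method says which ending belongs to which group, so that the endings are set side by side and no treatment is read from them. Doublets were not called here, and their treatment is not given in the sources used here. With at least 1000 fragments there were 8565 barcodes of ending 1 with 162658006 insertions and 7237 of ending 2 with 149590880. Rates are insertions per 1000000 of an ending (IPM). Their intervals take both ends of a fragment, and all insertions of a barcode, as independent, and are therefore too narrow. Of the barcode sequences seen near the members, 98 occur with both endings (8472 with ending 1 and 7164 with ending 2). The promoter was taken as 2 kb on either side of every annotated TSS of the gene.

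Of the 9 members, 1 differed by at least 2-fold between endings in promoter insertions, against 5.07% of 20938 promoters (4.33% higher with ending 2, 0.736% with ending 1). This was Cxcr5, with 6.93 IPM (interval 6.53 to 7.35) with ending 1 and 19 (interval 18.3 to 19.7) with ending 2. At its TSS at chr9 position 44526421, within 500 bases, the rates were 0.965 and 9.38, a ratio of 9.72, and 85 of 8565 barcodes (0.992%) and 550 of 7237 (7.6%) held an insertion. The other annotated TSSs of Cxcr5 had at most 0.481 IPM with either ending. Cxcr5, without a read in SmartSeq2, thus had insertions at its TSS mainly in barcodes of ending 2.

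Izumo1r followed at 20.6 and 37.7 IPM, a ratio of 1.83, with an insertion in 15.4% of barcodes of ending 1 and 25.3% of ending 2. For the other 7 members the ratio was between 1.01 and 1.21. Bcl6 (48.6 and 42.7 IPM) and Tcf7 (27.5 and 22.7) were somewhat higher with ending 1, and Lef1 (65 and 69.6), Id3 (28.1 and 30.1) and Slamf6 (17.1 and 17.9) with ending 2. Sh2d1a had 22.5 and 22.3. Id2 was the most open per length, at 20.8 IPM per kb, at or above 96.1% of promoters, with 107 and 104 IPM in all. Bcl6, at 11.4 per kb, stood at or above 82% of promoters and Lef1, at 10.6, at or above 79.7%, although both were read in few cells.

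**Figure D5:**
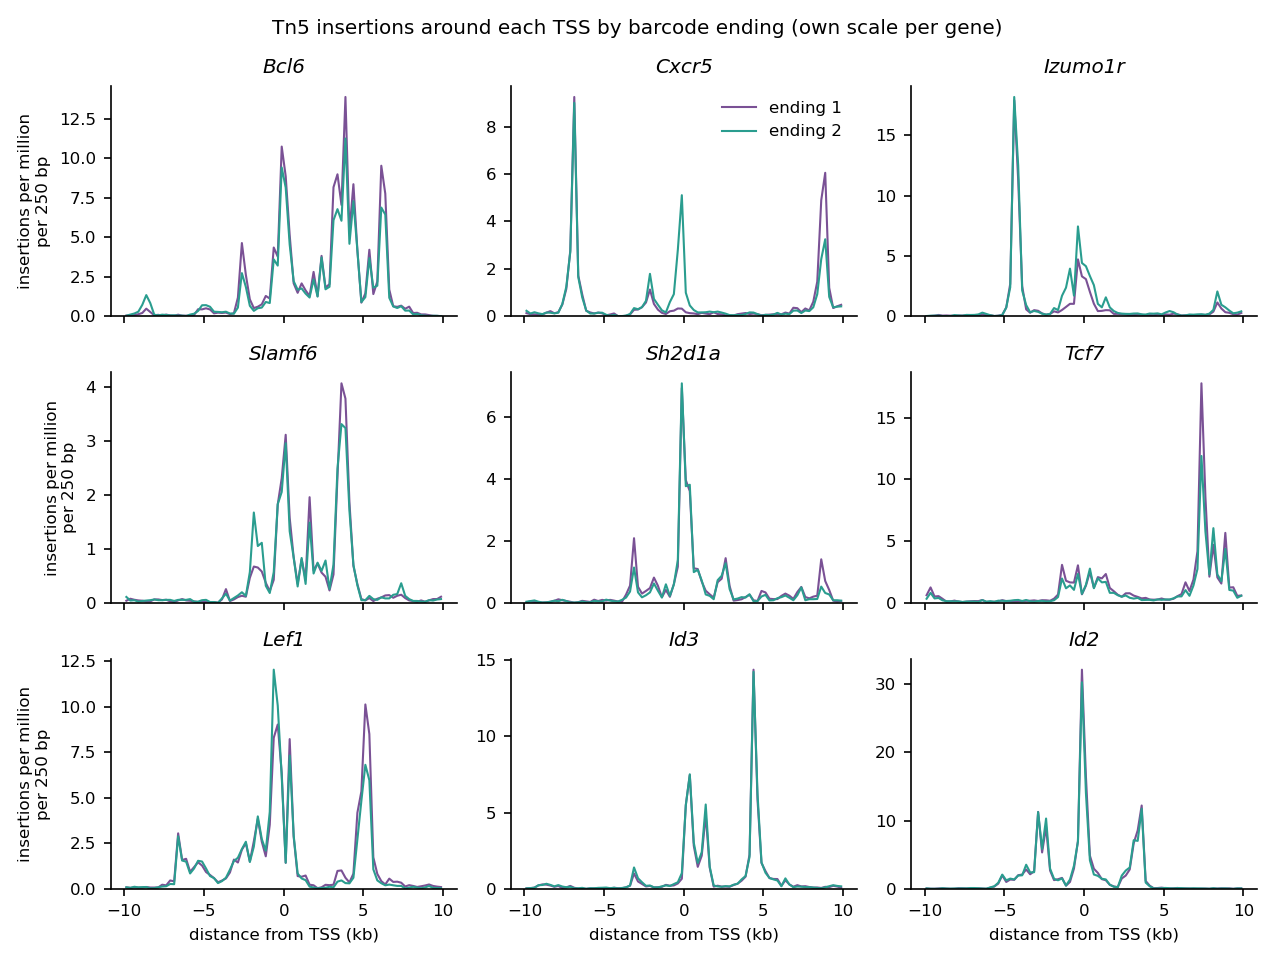
Tn5 insertions per 1000000 (IPM) in bins of 250 bp (y axis, own scale per gene) against the distance from the annotated TSS with the most insertions (x axis, kb, along the gene), for barcodes of ending 1 and ending 2. The endings lie close together at the TSS of Id2, Id3 and Sh2d1a; at the TSS of Cxcr5 a peak is seen with ending 2 only, where rates within 500 bases are 0.965 and 9.38.

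The regions of changed methylation also differed between endings. All 4 regions of loss near members had more insertions with ending 2: 15 against 320 insertions at Slamf6 (0.0922 and 2.14 IPM, a ratio of 11.6 with 0.1 IPM added), 16 against 84 at Tcf7 region 3 (a ratio of 3.33), and ratios of 2.09 and 1.52 at the intronic and 5′ regions of Izumo1r. Over all regions that lost methylation, 65.2% were at least 2-fold higher with ending 2 and 0.105% with ending 1. All 5 regions of gain had a higher rate with ending 1, with ratios of 1.81 and 1.32 at Cxcr5, 1.77 and 1.13 at Tcf7 and 1.12 at Lef1, none past 2-fold. The intervals of the endings overlapped where the ratio was 1.32, 1.13 or 1.12. At the Tcf7 region with a ratio of 1.13, 0.829% of barcodes of ending 1 and 0.843% of ending 2 held an insertion. Over all regions that gained methylation, 32% were at least 2-fold higher with ending 1. The most open windows of the members mostly lay outside these regions, such as the window 7.39 kb after the 5′ end of Tcf7, with 27 and 17.8 IPM.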

How the data were processed

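Sums, shares and regions were computed from the deposited tables; the 9 members and all gene lists were chosen with earlier results of these data known. The SmartSeq2 count values deposited by the authors are reads per gene in each cell (STAR, GRCm38) and carry no molecular identifiers; strand is not stated, so that reads of overlapping genes (Gm37419 at Bcl6, Bcl9l at Cxcr5, Gm37065 at Slamf6, Tenm1 at Sh2d1a, Gm26551 and A630014C17Rik at Tcf7, Gm43352 and Gm42449 at Lef1) cannot be told apart. Cells and sub-clusters follow the study's cell list (524 cells). Counts were summed per group and scaled to CPM. The methylation fraction values deposited by the authors come from BSMAP and metilene on mm10, as 1 value per group; the q-value that the authors deposited served only as a filter, and their column of differences was not used. The deposited fragment counts come from Cell Ranger ARC; both ends of each fragment were counted. Genes and TSSs follow GENCODE M21, matched by ID for 55141 of 55401 rows, and sequences GRCm38. Named were all members, the 3 highest and 3 lowest genes of each list with at least 100 counts, and likenesses of at least 0.2; some listed genes are not reported here. Scripts used Python, SciPy and samtools 1.23.1, and were tested on simulated data. Bulk ATAC-seq, ChIP-seq and 10X RNA samples were not analysed here.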

Additional observations from a re-analysis of the deposited data

How the results depend on the processing

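No paired analysis was possible because each table used here has 1 sample per group. Of the alternatives of the 4 main counts, 19 stayed within 1.5 times the main count. The number of members past 2-fold in SmartSeq2 was 3 and became 5 in lane 1 and 5 in lane 2, chosen after seeing the data, while the share over all genes went from 37.2% to 43.3% and 53.5%; Izumo1r (higher), Lef1 (lower) and Id3 (higher) were past 2-fold in both lanes. With all cells of the tables Slamf6 was also past 2-fold (log2 ratio 1.32). Without cells that carry a macrophage or hepatocyte marker, also chosen after seeing the data, the log2 ratio of Id3 was -3.74 in place of 1.76. With no treated read left, the size of that ratio depends on the 1 CPM added, and the intervals of the shares overlapped. With a prior of 0.1 CPM, 47.4% of all genes were past 2-fold, and without a count filter 10.1%, since genes without reads then enter the total. Members with a methylation region numbered 5, and 3 with distance taken from the TSS. They numbered 4 with a q-value of at most 0.01, which leaves out Lef1. With at least 20 CpG positions they numbered 2 (Slamf6 and Tcf7), since regions with fewer are left out, among them those of Izumo1r and Lef1. Members past 2-fold between endings numbered 1, and 0 over gene bodies with 2 kb upstream, for which the cause was not tested, and 0 at the gene's 5′ end only (an alternative added later), a window that leaves out the open TSS of Cxcr5. Apart from Id2 and Sh2d1a, each member was read in fewer than 10 cells of at least 1 group, which limits its values.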

Other observations

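Of 21 follicular helper genes 17 had a region that lost methylation within 50 kb, among them Il21, Pdcd1, Maf, Icos and Batf, and Ascl2, which had no read in SmartSeq2; 3 had a region that gained methylation (Icos, Il21r and Il4). Of 9 genes that oppose the programme 6 had a loss and 2 a gain, and of 13 naive and memory genes 7 had a loss and 8 a gain, with Bach2, Ccr7, Cd27, Foxp1, Myb and S1pr1 in both. Of 8 TCF and LEF partners 3 had a loss and 3 a gain, and of 7 E proteins and other partners of Id2 and Id3 1 had a loss (Zeb2) and 1 a gain (Tcf3). Of 5 iNKT markers found as protein-coding genes 4 had a loss, and of the B cell, CD8 T cell, hepatocyte and macrophage markers none had a region, while Ikzf2 of the 2 regulatory T cell markers had a loss and Klrb1c of the 2 NK cell markers a gain. Among all protein-coding genes 11.4% had a loss and 6.98% a gain. These genes differ in length and lie near other genes, and the lists were not tested.

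Of the 9 SLAM and SAP pathway genes, Cd48, Slamf1 and Slamf7 had a region of loss within 50 kb and Fyn, a kinase, regions of both kinds. Foxp3, a regulatory T cell marker, was read in 1 treated cell. Ikzf2, the other such marker, was read in 11 untreated (4.03%) and 33 treated cells (13.1%). Of the NK cell markers, Ncr1 was read in 12 untreated (191 CPM) and 47 treated cells (759 CPM), and Klrb1c in 15 and 23 cells. Cd8a was read in 3 and 5 cells, and Cd8b1 in none.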
